A study of Mus musculus with 6 samples.

Results

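The 44 genes described here encode proteins that make ribosomes: RNA polymerase I and its factors (6 genes), nucleolar proteins with several roles (5), core proteins of the small nucleolar ribonucleoproteins (6), and assembly factors of the small (14) and the large subunit (13). They were chosen by name from what is known of their products, but with earlier results of these arrays known, so the choice was not blind. Every array probe whose gene symbol was in the list was taken. The arrays hold 81 probes for 43 of them. Of these probes, 67 were tested, covering 40 members, out of 10123 genes with a tested probe in all. Fbl, which encodes the methyltransferase fibrillarin, had no probe of that name, and the probes of Utp20, Wdr12 and Gnl3 were detected on too few arrays to be tested.

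The tissue was the lens placode region of E10.5 mouse embryos on a mixed FVB and 129 background, cut out of frozen sections by laser. In the CBP/p300 DCKO embryos both acetyltransferase genes were floxed on both alleles and Pax6-Cre was present, in which a Pax6 lens enhancer and promoter drives Cre in the head ectoderm that forms lens and cornea. The WT embryos carried the same floxed alleles by the methods, without Pax6-Cre, and are labelled wild type. RNA was amplified and hybridised to 6 bead arrays, 3 DCKO and 3 WT, all on 1 chip; the DCKO tissue is labelled surface ectoderm and the WT tissue lens placode. By the labels, each genotype's 3 embryos gave 1 RNA pool, amplified as 3 samples, whereas the methods speak of separate embryos. If the pool was shared, p-values measure only technical spread.

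Ribosomes are made in the nucleolus, where RNA polymerase I transcribes the precursor of the ribosomal RNAs. Small nucleolar ribonucleoproteins guide the modification of this precursor, and a large set of assembly factors folds, cuts and exports the small and the large subunit along separate paths. The genes of these factors are known as a group that follows cell growth, and the transcription factors of the Myc family are among their known activators.

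All levels below are log2 intensities after background correction and quantile normalization, all differences are DCKO minus WT on that log2 scale, and a gene was represented by its tested probe with the highest mean. A difference was called where the adjusted p from limma, over 19552 probes, was under 0.05. Both deleted genes were measured first. The brightest Ep300 probe differed by -0.03 (adjusted p = 0.98), while another Ep300 probe read 4.92, 4.67 and 5.26 on the DCKO arrays, where it was not detected, and 6.59, 7.25 and 7.02 on the WT arrays (adjusted p = 0.016). The brightest Crebbp probe differed by -0.76 (adjusted p = 0.23). Where these probes lie relative to the deleted exons is not known here. Each array detected 18724 to 19551 probes in DCKO and 18081 to 19769 in WT. Across tested probes, arrays correlated at 0.878 to 0.883 within DCKO and at 0.93 to 0.934 within WT.

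Marker genes of the dissected cells moved between the genotypes. Below, a marker fell or rose where its difference was called. Sums run over all markers with a probe, each by its brightest probe, whether tested or not. All 9 tested lens markers fell in DCKO, with a summed linear level of 493 to 627.9 per DCKO array against 17830 to 19360 per WT array, and Cryaa, Crybb3, Crygd, Cryge and Foxe3 were detected on no DCKO array. Of 9 tested macrophage markers, 4 fell, with sums of 162 to 298.8 in DCKO and 2214 to 3145 in WT. All 9 were lower at an unadjusted limma p under 0.05, without overlap of the arrays. Aif1, C1qc, Cx3cr1 and Mpeg1 were detected on no DCKO array, and C1qa and Fcer1g on no array of either genotype. Of 10 tested surface ectoderm markers, 3 rose and none fell, with sums of 9285 to 10840 in DCKO and 8545 to 10060 in WT. At that unadjusted level 7 were higher and 1 was lower, Cdh1, with a difference of -0.82 and no overlap. Of 4 tested erythroid markers 1 fell, and of 3 tested mesenchyme markers 1 fell and 1 rose. Unadjusted, 2 erythroid markers were lower, and 1 mesenchyme marker was lower and 2 were higher. Sums over the erythroid markers were 2541 to 2961 in DCKO and 4069 to 5092 in WT, and those over the mesenchyme markers 659.4 to 1105 in DCKO and 4363 to 4758 in WT. None of 2 tested optic vesicle and 3 tested endothelial markers was called, while 1 of each was lower at the unadjusted level. Sums for optic vesicle were 175.6 to 207.5 in DCKO and 242.1 to 361.3 in WT. For endothelium they were 103.3 to 131.2 in DCKO and 154.2 to 405.6 in WT. The part of these shifts in the values below was not tested.

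Of the ribosome biogenesis genes, 1 was called between the genotypes. Rrp12, a HEAT-repeat protein that in yeast takes part in the export of pre-ribosomal subunits, fell 3.09-fold in DCKO, a log2 difference of -1.63 that was -0.62 without background correction, where it was still called. Of the 40 tested members, 1 was called lower and 0 higher, where 2.78% of all genes were called lower and 2.1% higher. At an unadjusted p under 0.05, 11 members (27.5%) passed, all 11 lower in DCKO and 0 higher, against 21.2% of all genes, of which 1066 were lower and 1076 higher. On 15 members (37.5%) all DCKO arrays lay below all WT arrays, against 14.6% of all genes, and on 3 members, Nop56, Noc4l and Ddx10, all DCKO arrays lay above, against 14.4% of all genes. In these bulk samples, fewer cells of a type and less RNA per cell cannot be told apart.

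Most members leaned to the negative side without passing the test. Their median difference was -0.41, with the middle 50% between -0.69 and 0.01, and 30 of 40 were negative, against a median of 0.01 and 49.1% negative over all genes. The full range ran from -1.63 for Rrp12 to 1.18 for Ddx56. The 95% interval lay wholly below 0 for 11 members, and it lay within 1 of 0 on either side, a 2-fold change, for 13. The median deviation of the members from their own mean over the 6 arrays was -0.19, -0.09 and -0.24 on the DCKO arrays and 0.15, 0.15 and 0.17 on the WT arrays, so no DCKO array overlapped the WT arrays on this summary. Over all tested probes the same deviation was between -0.01 and 0.01 on every array, which quantile normalization largely fixes in advance. The median of each role group was negative under every alternative processing, and 25 of 40 members were negative without normalization between arrays, which moved the median of all probes to 0.12. The plot of differences by role sets the members side by side.

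**Figure D1:**
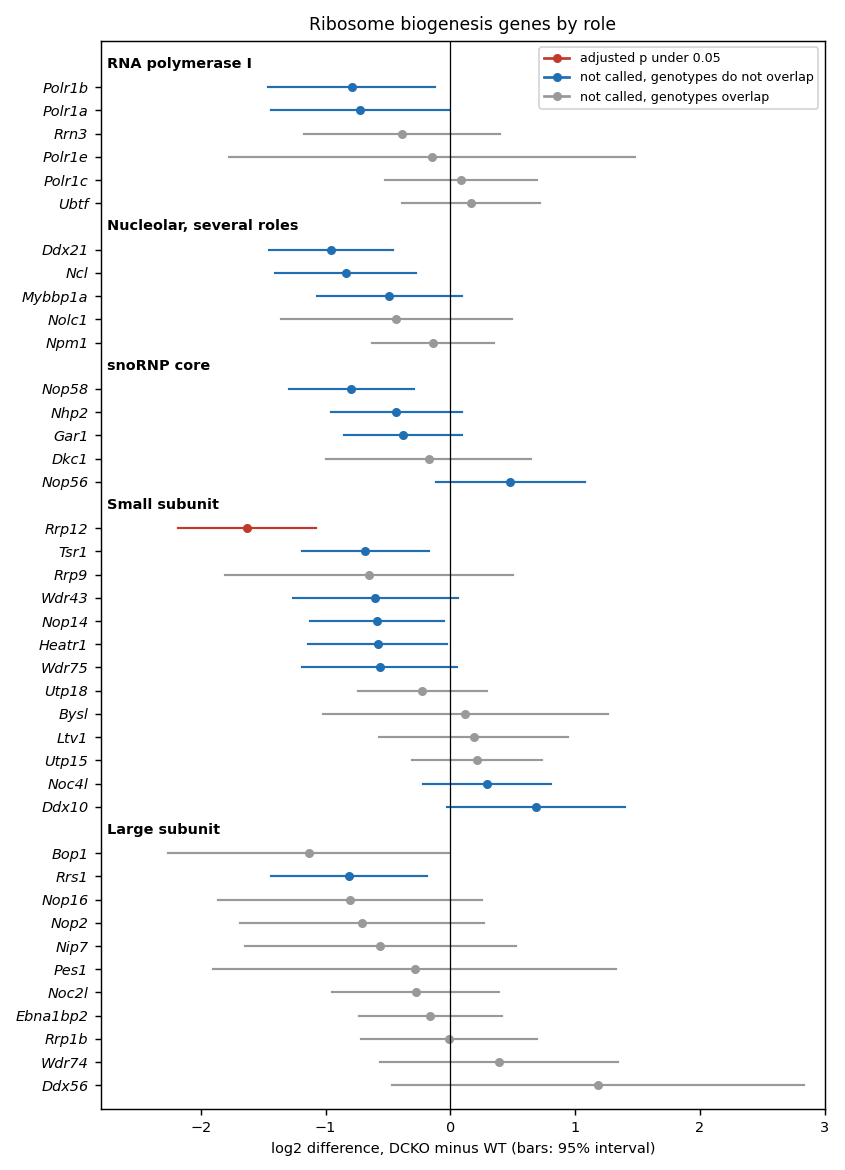
Difference DCKO minus WT on the log2 scale (x axis) for the 40 tested members, grouped by role and ordered within each group; points are fitted differences and bars their 95% intervals. Rrp12, in red, is the called gene; blue marks genes whose DCKO and WT arrays do not overlap, 14 more of them on the negative side and 3 on the positive side.

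The promoters of the members were read for a pair of motifs known from growth genes. The first is the E-box CACGTG, which dimers of Myc and Max can bind, and the second is CCGGAAG, a core bound by ETS family factors, which reads CTTCCGG on the other strand. Both strands were searched over the 250 bases before each transcription start listed in the RefSeq table of build GRCm38.p6, in which 39 members had 48 windows. A gene was counted once where any of its windows held the motif. CACGTG was found in 3 members (7.69%), against 10.1% of genes with a tested probe, and CCGGAAG in 11 members (28.2%), against 16.4%. In the lists of other ribosome biogenesis genes and of cytosolic ribosomal protein genes, described below, CCGGAAG was found in 33.7% and 30.0%. CACGTG was found there in 9 of 86 and 5 of 60 genes with a window. The higher share of CCGGAAG was thus not peculiar to the members. Among the members whose DCKO arrays all lay below the WT arrays, 13 had a window, of which 0 held CACGTG and 3 held CCGGAAG; among the 20 with overlapping arrays, 3 held CACGTG and 7 CCGGAAG. The windows of 5 members are shown to set these patterns side by side: Ddx21 and Ncl, whose arrays did not overlap and whose windows hold neither motif, Gar1 and Heatr1, which did not overlap either and hold CCGGAAG on one strand, and Nop2, whose arrays overlapped and whose window holds both. Capitals mark the motifs, and each window is written 5′ to 3′ on the strand of its gene.
Ddx21, chr10:62602299-62602548, minus strand: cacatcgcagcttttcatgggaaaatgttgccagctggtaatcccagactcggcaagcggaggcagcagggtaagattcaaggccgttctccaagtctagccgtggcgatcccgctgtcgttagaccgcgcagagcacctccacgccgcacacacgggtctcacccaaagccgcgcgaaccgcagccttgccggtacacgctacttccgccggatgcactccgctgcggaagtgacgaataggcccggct
Ncl, chr1:86359456-86359705, minus strand: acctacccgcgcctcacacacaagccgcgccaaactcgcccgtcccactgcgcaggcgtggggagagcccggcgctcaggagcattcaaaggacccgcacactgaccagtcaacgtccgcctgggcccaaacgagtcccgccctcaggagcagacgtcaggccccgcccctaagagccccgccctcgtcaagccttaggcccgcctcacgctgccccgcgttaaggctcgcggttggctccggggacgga
Gar1, chr3:129831397-129831646, minus strand: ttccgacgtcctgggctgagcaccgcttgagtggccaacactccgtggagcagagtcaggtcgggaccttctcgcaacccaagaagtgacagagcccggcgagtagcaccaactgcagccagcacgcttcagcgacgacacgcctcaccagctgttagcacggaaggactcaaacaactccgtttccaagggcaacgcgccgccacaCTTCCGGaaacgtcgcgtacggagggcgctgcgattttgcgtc
Heatr1, chr13:12395125-12395374, plus strand: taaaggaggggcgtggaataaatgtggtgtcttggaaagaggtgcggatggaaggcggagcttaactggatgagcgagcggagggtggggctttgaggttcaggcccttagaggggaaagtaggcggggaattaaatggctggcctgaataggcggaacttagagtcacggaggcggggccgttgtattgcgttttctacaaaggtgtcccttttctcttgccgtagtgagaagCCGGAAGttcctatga
Nop2, chr6:125131633-125131882, plus strand: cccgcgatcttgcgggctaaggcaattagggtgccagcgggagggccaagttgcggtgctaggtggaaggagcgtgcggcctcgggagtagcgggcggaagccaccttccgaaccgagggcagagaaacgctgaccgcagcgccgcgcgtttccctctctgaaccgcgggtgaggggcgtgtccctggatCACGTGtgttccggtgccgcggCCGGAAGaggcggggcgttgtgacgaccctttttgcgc
The start listed for Gar1 lies just inside the outer end of the annotated gene. In Nop2 the E-box lies 60 bases upstream of the start. A match describes these letters only.

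RNA polymerase I and its factors act first in the pathway. None of the 6 genes was called, and 4 differences were negative. Their median of -0.27 was -0.71 without DCKO replicate 2, -0.09 without DCKO replicate 3 and -0.03 without normalization between arrays. Polr1b, the second largest subunit of the enzyme, read 7.21, 7.48 and 7.33 in DCKO and 7.77, 8.59 and 8.03 in WT. The difference of -0.79 ± 0.28 (SE) had an adjusted p of 0.17, with no overlap of the arrays. Polr1a, the catalytic subunit, read 9.10, 9.85 and 9.79 in DCKO and 9.99, 10.42 and 10.51 in WT. Its arrays did not overlap either, and its difference was -0.72 ± 0.30 (adjusted p = 0.24). The 4 tested probes of Polr1a differed in sign, and with their mean the difference was -0.31 (adjusted p = 0.51). Rrn3, the factor that joins the polymerase to the promoter, read 9.50, 10.34 and 9.44 in DCKO and 10.47, 9.91 and 10.06 in WT. The second DCKO array stood within the WT values, and the difference was -0.39 with an interval of -1.17 to 0.39. Ubtf, which binds the ribosomal DNA and opens it for transcription, read 10.48, 10.61 and 10.90 in DCKO and 10.69, 10.37 and 10.44 in WT, with overlap and a difference of 0.17 (interval -0.39 to 0.72). The sign of Ubtf depended on the probe, as given below. Polr1c, a subunit shared with RNA polymerase III, differed by 0.08 and Polr1e, a subunit of the polymerase I enzyme alone, by -0.15, both with overlapping arrays.

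The nucleolar proteins with several roles were the group in which every difference was negative. Their median was -0.49 over 5 genes, and none was called. In 3 of the 5 the DCKO arrays all lay below the WT arrays, a count over few genes, where 14.6% of all genes did so. Ddx21, an RNA helicase of rRNA transcription and processing, read 10.25, 9.97 and 10.17 in DCKO and 11.09, 11.10 and 11.07 in WT. The WT arrays lay within a narrow band far above the DCKO arrays. The difference was -0.95 ± 0.21 (1.94-fold lower in DCKO, interval -1.45 to -0.46), and its adjusted p of 0.056 missed the threshold; it passed under 5 of the other ways of processing. Ncl encodes nucleolin, a major RNA-binding protein of the nucleolus. It read 9.98, 10.13 and 10.49 in DCKO and 10.99, 11.17 and 10.96 in WT, a difference of -0.84 ± 0.24 without overlap (adjusted p = 0.11). Mybbp1a, a nucleolar protein that also binds transcription factors, read 11.51, 10.94 and 11.18 in DCKO and 11.57, 11.81 and 11.72 in WT. The gap between its highest DCKO and lowest WT array was small, and the difference of -0.49 had an adjusted p of 0.32. Npm1, the nucleolar chaperone nucleophosmin, read 12.69, 12.93 and 12.85 in DCKO and 12.92, 12.96 and 13.01 in WT. Its arrays overlapped, and its difference of -0.14 lay in an interval of -0.63 to 0.35. Nolc1, which shuttles small nucleolar ribonucleoproteins, differed by -0.43 with overlapping arrays.

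Among the core proteins of the small nucleolar ribonucleoproteins, the box C/D proteins Nop58 and Nop56 had differences of opposite sign, neither of them called. Nop58 read 9.50, 9.42 and 9.53 in DCKO and 10.11, 10.39 and 10.33 in WT, a difference of -0.79 ± 0.21 without overlap (adjusted p = 0.092). Nop56, its partner in the same particles, read 7.93, 8.51 and 8.45 in DCKO and 7.86, 7.91 and 7.68 in WT. All its DCKO arrays lay above the WT arrays, the first by a thin margin, and the difference of 0.48 (interval -0.12 to 1.08) was not called. The box H/ACA particles guide pseudouridylation, and their proteins among the members, Nhp2, Gar1 and Dkc1, were all on the negative side. Nop10, also a protein of these particles, is not a member but is in the wider list described below. It was named after its values were seen, and read 9.54, 10.22 and 9.91 in DCKO and 9.24, 9.27 and 9.25 in WT. Its difference of 0.635, without overlap, was not called (adjusted p = 0.22). Nhp2 read 6.83, 6.94 and 6.61 in DCKO and 7.09, 7.23 and 7.37 in WT, a difference of -0.44 without overlap (adjusted p = 0.33). Gar1, looked at in each array only after its values were seen, read 11.79, 11.83 and 11.81 in DCKO and 12.21, 12.21 and 12.14 in WT. Replicates of Gar1 lay closer together than those of most members, and its difference of -0.38 was called with trend and robust moderation, whereas the adjusted p was 0.35 in the fit used here. Dkc1, the pseudouridine synthase itself, differed by -0.17 with overlapping arrays.

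The small subunit factors held the called gene, and their median was -0.57 over 13 tested genes. That median was -0.16 without DCKO replicate 3. Rrp12 (chromosome 19, 41859483 to 41896153, GRCm38.p6) read 5.97, 5.65 and 6.14 in DCKO and 7.52, 7.46 and 7.65 in WT, means of 5.92 ± 0.25 and 7.55 ± 0.10 (SD, n = 3 each). Rrp12 had only 1 probe, so no other probe could check its value. Every array detected this probe, and all DCKO arrays lay well below all WT arrays. The difference was -1.63 ± 0.23 (interval -2.18 to -1.08, adjusted p = 0.016). The call did not hold without WT replicate 1, 2 or 3, with adjusted p-values of 0.072, 0.069 and 0.083, while the difference stayed between -1.67 and -1.57. Tsr1, a GTPase-like protein of late small subunit precursors, read 9.04, 8.78 and 9.08 in DCKO and 9.58, 9.64 and 9.73 in WT. Its arrays did not overlap, and its difference of -0.68 ± 0.21 had an adjusted p of 0.13.

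Components of the small subunit processome, the large particle that forms on the nascent precursor RNA, were split. Heatr1, Wdr43, Wdr75 and Nop14 differed by -0.58, -0.60, -0.57 and -0.59, each without overlap, and none was called (adjusted p between 0.21 and 0.28). For Wdr43 the separation was thin, with a highest DCKO array of 9.25 and a lowest WT array of 9.28. The 4 tested probes of Heatr1 differed in sign, as listed below. Rrp9, a U3 particle protein, differed by -0.65, which rested on the third DCKO array (7.93 against 9.71 and 9.50 on the other two). Utp18 differed by -0.23, Utp15 by 0.21 and Bysl and Ltv1, factors of the maturing subunit, by 0.12 and 0.19, all with overlap. Noc4l, the partner of Nop14 in yeast, stood on the positive side with 0.29 and no overlap. Ddx10, a helicase known in yeast to release a guide RNA from the precursor, read 9.21, 9.25 and 10.07 in DCKO and 8.71, 8.91 and 8.85 in WT. The third DCKO array stood apart from the other two, the genotypes did not overlap, and the difference of 0.69 (interval -0.03 to 1.40) was not called.

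Of the 11 tested large subunit factors, 0 were called and 9 differences were negative. The median was -0.29, and it was -0.18 without WT replicate 1 and -0.60 without WT replicate 2. In 1 of the 11 (9.09%, against 14.6% of all genes) the DCKO arrays all lay below the WT arrays. This was Rrs1, which in yeast helps to place the smallest ribosomal RNA. It read 7.81, 8.28 and 8.48 in DCKO and 9.16, 8.84 and 9.01 in WT, a difference of -0.82 ± 0.26 (adjusted p = 0.14). Bop1 and Pes1 act with Wdr12 in a complex that large subunit maturation needs. Bop1 read 6.11, 6.44 and 5.32 in DCKO, where 2 arrays detected it, and 7.07, 7.86 and 6.34 in WT, where all did. Its highest DCKO array lay just above its lowest WT array, and the difference of -1.14 ± 0.47 had an adjusted p of 0.24. Pes1 varied widely within each genotype, from 6.19 to 8.75 in DCKO and from 6.95 to 8.13 in WT, and its difference of -0.29 had an interval of -1.90 to 1.33. Ddx56, a helicase of the large subunit path, read 4.96, 7.62 and 7.22 in DCKO and 5.79, 5.15 and 5.31 in WT. It was detected on 2 DCKO arrays and 1 WT array, and the first DCKO array lay below all WT arrays. Its difference of 1.18 (adjusted p = 0.40) became 2.0 without that array, DCKO replicate 1, and was then called (adjusted p = 0.039). Nop16, the rRNA methyltransferase Nop2 and Nip7 differed by -0.80, -0.71 and -0.56, Noc2l, Ebna1bp2 and Rrp1b by -0.28, -0.16 and -0.01, and Wdr74 by 0.39, all with overlap. The plot of levels shows each array for the 17 genes given in full.

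**Figure D2:**
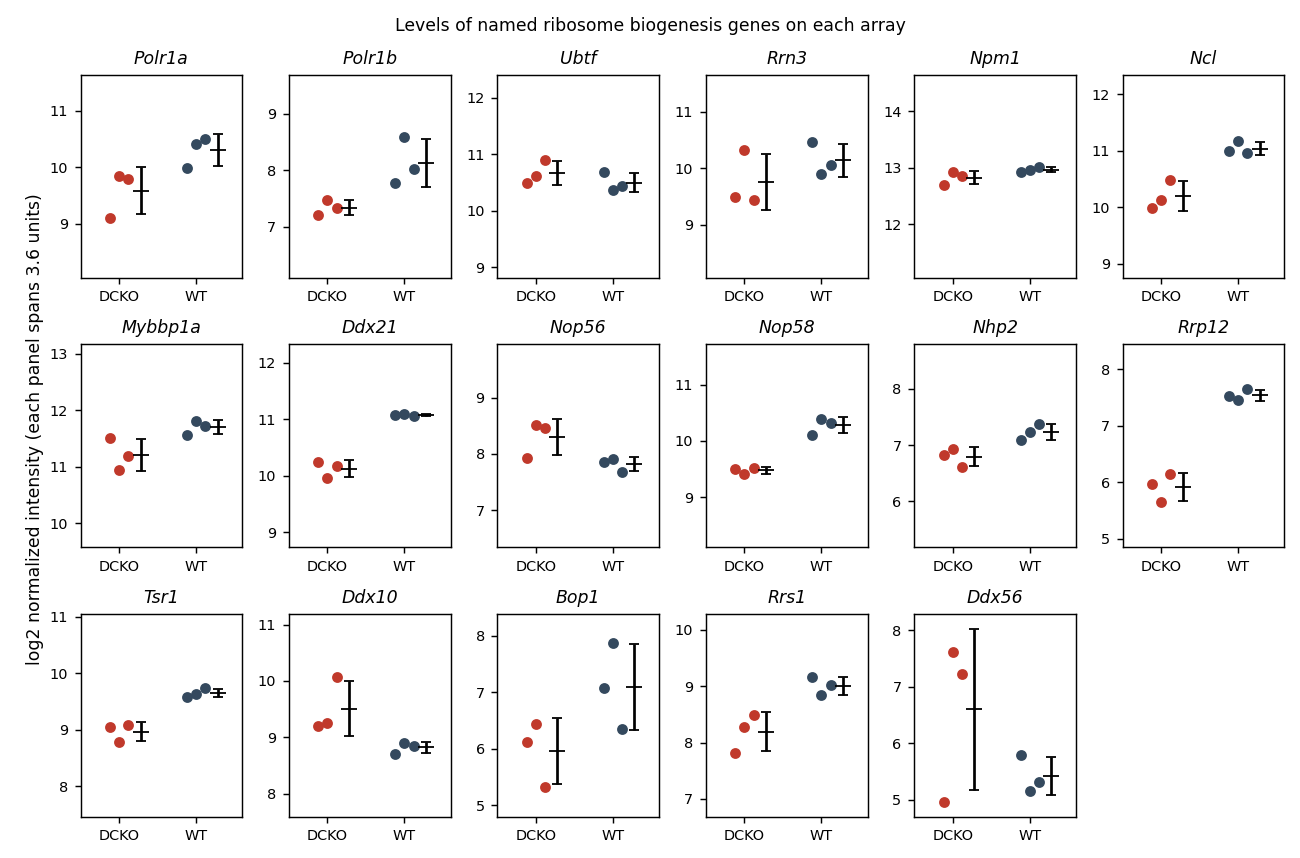
Level of 17 members on each array (y axis, log2 normalized intensity, every panel spanning the same number of units around its own centre), with DCKO arrays on the left in red and WT arrays on the right in blue; bars are the mean ± SD of 3 arrays. Rrp12, Ddx21, Ncl and Nop58 show a gap between the genotypes, while Npm1, Ubtf and Rrn3 overlap.

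Probes of the same gene gave an internal check on these values. Of 19 members with more than 1 tested probe, 5 had probes of opposite sign: Polr1a, Ubtf, Nop58, Noc4l and Heatr1. Among the 67 tested member probes, 52 differences were negative and 1 was called lower, against 2.81% of all tested probes. The other Ncl probe read 9.80, 9.91 and 10.19 in DCKO and 10.90, 11.02 and 11.08 in WT, a difference of -1.03 (adjusted p = 0.054). The other Tsr1 probe differed by -1.17 (adjusted p = 0.051) without overlap. For both genes the probes lay on the same side, and only the dimmer probe was close to the threshold. The other Ddx21 probe differed by -0.91 but overlapped, with DCKO arrays at 7.04, 7.27 and 8.85 and WT arrays at 8.37, 8.90 and 8.63. The dimmer Nop58 probe ran the other way (0.29, adjusted p = 0.70) and was detected on 2 DCKO and 3 WT arrays. Ubtf had probes at 0.17, -1.41 and 0.52, and the mean of its probes was -0.24, so no direction can be given for it. The plot of probes shows every such gene.

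**Figure D3:**
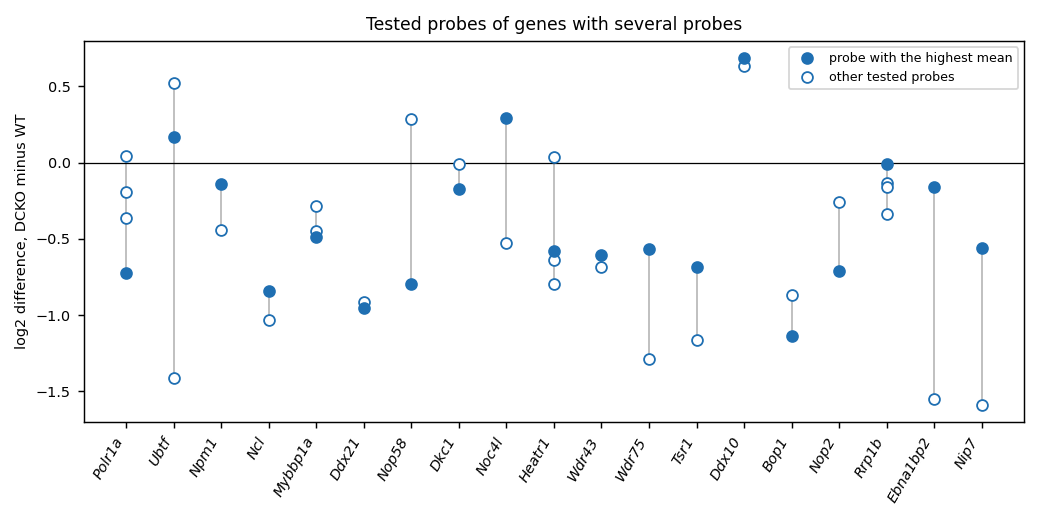
Difference DCKO minus WT on the log2 scale (y axis) for each tested probe of the 19 members with several tested probes (x axis); filled circles are the probes with the highest mean, open circles the others, and grey lines join probes of a gene. All probes of Ncl, Ddx21 and Tsr1 lie below 0, and the probes of Ubtf and Nop58 lie on both sides.

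The rest of the pathway was described from a wider list of 106 other ribosome biogenesis genes, 96 of them tested. By limma 0 were called. At an unadjusted p under 0.05, 10 were lower (10.4%) and 5 higher (5.21%), against 1066 and 1076 of all 10123 genes. On 15 (15.6%) all DCKO arrays lay below all WT arrays, against 14.6% of all genes. On 7 all lay above, against 14.4%. The shares lower and wholly below were thus close to those of all genes. The median of the 96 was -0.07, and 56 of them were negative. That median was -0.17 without DCKO replicate 1 and -0.13 without WT replicate 3. It was 0.10 without normalization between arrays, where the median of all probes was 0.12. Among dimmer probes in the list, 1 of Tcof1 was called lower and 1 of Eif6 higher. By the brightest probe, the smallest adjusted p was 0.052, for Utp4, with a difference of -1.10. Utp4, a processome protein, was named here after its values were seen. On the other side stood Gnl3l, a nucleolar GTPase named for the same reason, at 1.04 (adjusted p = 0.072). The 81 genes of cytosolic ribosomal proteins, which the factors assemble into subunits, had 55 tested members. Again 0 were called, and 4 were lower (7.27%) and 3 higher (5.45%) at an unadjusted p under 0.05. Both shares were below those of all genes. On 12 genes (21.8%, against 14.6% of all genes) all DCKO arrays lay below all WT arrays. On 8 all lay above, against 14.4% of all genes. The median of the ribosomal protein genes was 0.03. That median was -0.02 without DCKO replicate 3 and -0.03 without WT replicate 3, so it has no fixed sign. Of 13 tested proliferation genes 0 were called, with a median of 0.11. The summed level of the 14 with a probe was 28220 to 31640 in DCKO and 23180 to 24460 in WT. Whether the members differ from these lists was not tested, as the members were picked with results of these arrays known.

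**Figure D4:**
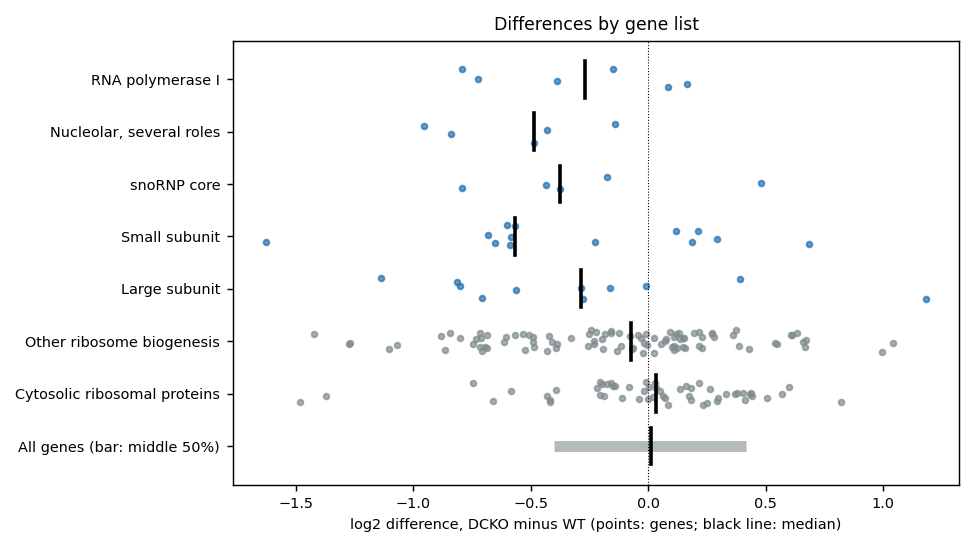
Difference DCKO minus WT on the log2 scale (x axis) for genes of each list (rows, points spread vertically for legibility), with the list's median as a black line; the grey bar in the last row spans the middle 50% of all genes. The medians of the role groups lie between -0.57 and -0.27, that of the other ribosome biogenesis genes at -0.07 and that of the ribosomal proteins at 0.03.

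The Myc family was set beside the members because its proteins are known activators of these genes. Mycn read 6.79, 6.71 and 5.74 in DCKO and 8.60, 8.25 and 8.38 in WT, without overlap, and fell by 2.0 (± 0.34 SE, adjusted p = 0.029). Myc was detected on no DCKO array and on all WT arrays, at 4.90, 4.53 and 4.99 in DCKO and 5.58, 5.96 and 5.57 in WT, and it was not called (adjusted p = 0.10). As the DCKO values lie below detection, its level there has only a bound: the DCKO mean was at least 1.21-fold lower than the WT mean, with each DCKO array set to the higher of its lowest detected signal and its own value. Max, the shared partner, overlapped and differed by 0.14. Of 11 tested family members, 1 was called lower and 2 higher. Those 2 were Mxd1 and Mxd4, which compete with Myc for Max and were named after their values were seen. Mxd1 read 9.71, 9.40 and 9.08 in DCKO and 7.02, 5.75 and 6.71 in WT (difference 2.90, adjusted p = 0.013), and Mxd4 read 9.51, 9.78 and 8.77 in DCKO and 7.79, 7.39 and 7.35 in WT (difference 1.85, adjusted p = 0.034). Both had no overlap, and 2 dimmer Mxd4 probes were not called. The part of these genes in the members' values was not tested.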

How the data were processed

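RNA of 6 samples, 3 DCKO and 3 WT, was measured on Illumina bead arrays. For each probe the authors deposited a mean bead intensity, neither background-subtracted nor normalized, and a detection p-value against the negative controls of its array; the export came from GenomeStudio, whose version is not given in the sources used here. A table of processed intensity values that the authors also deposited served as an alternative (25.3% of its values are below 0). The 12 columns of bead numbers and bead errors were left out.

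Log2 values were computed from the deposited intensities by neqc (limma 3.58.1, R 4.3.3; offset 16, quantile normalization). Of 45281 probes, 34885 had 1 gene symbol, 18 several and 10378 none here; symbols were updated through Entrez identifiers (GRCm38.p6). Probes had to be detected (p under 0.05) on 3 or more arrays, which left 19552. These went into lmFit and eBayes, without a block, with Benjamini-Hochberg adjustment. The script was tested on simulated data.

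Genes are represented by their brightest tested probe. Values on each array are given for called members, the 3 largest differences of each role and Npm1, Ncl, Polr1a, Ubtf, Rrn3, Mycn, Myc and Max, with exceptions named in the text. The members and lists were chosen with earlier results of these data known. Alternatives were other background corrections, normalizations, filters and moderation, the mean of a gene's probes, a replicate block, and each array left out. The number of arrays limits the precision.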

Additional observations from a re-analysis of the deposited data

How the results depend on the processing

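The count of members called lower, 1 as reported, was 2 with a normexp offset of 50, 4 without background correction, 3 without a filter, 2 at a detection p under 0.01, 5 with trend and robust moderation, 2 with probes of a gene averaged, and 0 to 1 when 1 array was left out; members called higher were then 0 to 1. The members' median of -0.41 was -0.24 without background correction, -0.25 without normalization between arrays, where the median of all probes was 0.12, and -0.46 to -0.32 with 1 array left out; negative members then numbered 28 to 31. Other ribosome biogenesis genes called numbered 1 with the offset of 50, without background correction, without a filter and at a detection p under 0.01, 2 with trend and robust moderation and with the mean of probes, and 0 to 1 with 1 array left out. Ribosomal protein genes called numbered 2 without background correction, 4 with trend and robust moderation, and 0 with any array left out. Ubtf changed sign, to -0.24, with the mean of its probes. Rrp12 lost its call in 4 alternatives, the replicate block and each WT array left out, and its difference was -0.62 without background correction and -1.22 with the offset of 50. Of the other members given in full, Ddx21, Ncl, Nop58, Tsr1 and Ddx56 gained a call in some alternatives. The cause of these shifts was not tested.

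All tested probes called, 895 as reported, numbered 229 to 620 with 1 array left out. With the replicate number as a block they numbered 205, and 0 members were called. Deviations of samples with the same number correlated at 0.033, 0.033 and 0.01, against -0.033 to 0.001 for different numbers. All were small, and they do not settle whether the numbers mark a pairing.

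Precision is limited by 3 arrays per genotype: for 13 of 40 members the interval lay within a 2-fold change, and for the others it reached beyond it.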
